A study of Homo sapiens with 8 samples.

Results

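The genes described here are 10 of the 37441 genes in the count table, a set of neuronal cytoskeleton genes led by MAP2. They were MAP2, MAP1B, MAPT, TUBB3, TUBB2B, STMN2, NEFL, NEFM, GAP43 and DPYSL3, and each was found in the table by its Ensembl identifier. MAP2 was picked because its RNA level was higher in both resistant cell lines than in their sensitive counterparts, so MAP2 was chosen by its measured change with resistance, and those differences are given as a description without a test. The other 9 genes are neuronal cytoskeleton genes listed with it, and the list was drawn up when earlier results of these data were known, so their tests are not free of that choice.

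The libraries came from 2 non-small cell lung cancer lines, NCI-H1581 and NCI-H1703, which are sensitive to inhibition of fibroblast growth factor receptors (FGFR), and from the variants NCI-H1581R and NCI-H1703R, selected for resistance to the FGFR inhibitor CPL304110. Selection started at 50 nM and ended at 2.5 µM for NCI-H1581R and at 5 µM for NCI-H1703R, and each resistant variant is a single selected culture of its line. Cells were harvested 24 h after a change to fresh medium, for which the sources used here do not say whether it contained the inhibitor. Each of the 4 variants gave 2 libraries from repeats of the whole procedure, so p-values measure the spread between these repeats and not between independent selections. The lines were also kept in different culture media (DMEM/F12 for NCI-H1581, an RPMI medium for NCI-H1703), so medium and line cannot be told apart.

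Neurons keep long axons and dendrites by means of stable microtubules and neurofilaments. Microtubules are polymers of alpha- and beta-tubulin, along which microtubule-associated proteins such as MAP2, tau and MAP1B bind, and neurofilaments are intermediate filaments built from a light, a medium and a heavy subunit. Stathmins and collapsin response mediators control how microtubules grow and shrink, and many of these genes are also transcribed in tumours that are not neuronal. The transcription factor REST binds a sequence element named RE1 and represses neuronal genes in other tissues.

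Library totals ranged from 33800389 to 40031710 counts, and 3 counts, taken here as the lowest level that can be told from 0, corresponded to between 0.0749 and 0.0897 CPM (counts scaled to the size of the library). This floor covers counting error only. Replicates differed by more than counting noise in all 4 variants, most of all in NCI-H1581R, where the chi-square per degree of freedom was 103 against 24.6 to 33.9 elsewhere. Marker genes of broad cell types were summed as a description, and the labelled lung cancer origin was not tested. The 5 epithelial markers (EPCAM, CDH1, KRT8, KRT18 and KRT19) summed to 19.0 to 22.7 CPM in NCI-H1581, 13.1 to 15.1 CPM in NCI-H1581R, 73.3 to 75.6 CPM in NCI-H1703 and 6.76 to 8.41 CPM in NCI-H1703R, so none was abundant apart from KRT18 in NCI-H1703. Of 16 neuronal or neuroendocrine markers, the defining factors INSM1 and ELAVL4 had 0 counts in every library, and the list summed to 693 to 746, 747 to 943, 680 to 698 and 615 to 675 CPM in the same order, of which UCHL1 made up most. Fibroblast markers, 5 genes with COL1A2 as the most abundant, summed to 2257 to 2541 CPM in NCI-H1581, 1016 to 1035 CPM in NCI-H1581R and less than 30 CPM in both NCI-H1703 variants, and the 4 glial markers, with S100B at 0 counts in every library, summed to at most 0.25 CPM in the NCI-H1581 libraries and 0.127 CPM in NCI-H1581R, and to 0.778 to 1.0002 CPM in NCI-H1703 and 0.423 to 0.686 CPM in NCI-H1703R. The part of these other programmes in the results below was not tested, and in bulk RNA fewer cells that express a gene cannot be told apart from less RNA per cell.

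The upstream sequences that follow show the letters beside MAP2 and beside 3 other members, kept for their length outside annotated exons and not for how they changed. RefSeq promoters for GRCh38.p14 were matched for 6 of the 10 genes, and for 4 of these the 250 bases before the start, without bases that lie in annotated exons, are printed 5′ to 3′ on the gene's strand. For MAP1B and TUBB3 annotated exons left 85 and 176 bases, which are not printed. Capitals mark matches, on either strand, to the GC box with the letters GGGCGG. They also mark the CCAAT box, whose name gives its letters, and the core of the cAMP response element, which is written TGACG. The right part of the RE1 element was searched as GGACAGC. The sequences are MAP2 at chr2:209661246-209661464 on the plus strand, a start that lies inside the annotated gene, TUBB2B at chr6:3227657-3227903 on the minus strand, GAP43 at chr3:115623260-115623509 on the plus strand and DPYSL3 at chr5:147510069-147510318 on the minus strand.
MAP2: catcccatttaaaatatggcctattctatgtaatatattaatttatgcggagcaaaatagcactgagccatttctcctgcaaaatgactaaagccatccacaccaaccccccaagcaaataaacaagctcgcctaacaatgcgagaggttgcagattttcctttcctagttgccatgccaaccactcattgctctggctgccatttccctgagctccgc
TUBB2B: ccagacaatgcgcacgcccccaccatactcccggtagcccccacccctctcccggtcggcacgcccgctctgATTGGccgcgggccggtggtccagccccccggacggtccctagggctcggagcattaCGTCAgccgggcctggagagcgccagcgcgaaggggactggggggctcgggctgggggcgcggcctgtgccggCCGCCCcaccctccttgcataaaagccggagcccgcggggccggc
GAP43: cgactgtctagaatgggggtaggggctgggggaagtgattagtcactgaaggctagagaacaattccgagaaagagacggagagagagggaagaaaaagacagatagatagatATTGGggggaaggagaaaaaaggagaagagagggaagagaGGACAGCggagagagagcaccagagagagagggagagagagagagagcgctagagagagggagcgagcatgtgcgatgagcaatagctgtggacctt
DPYSL3: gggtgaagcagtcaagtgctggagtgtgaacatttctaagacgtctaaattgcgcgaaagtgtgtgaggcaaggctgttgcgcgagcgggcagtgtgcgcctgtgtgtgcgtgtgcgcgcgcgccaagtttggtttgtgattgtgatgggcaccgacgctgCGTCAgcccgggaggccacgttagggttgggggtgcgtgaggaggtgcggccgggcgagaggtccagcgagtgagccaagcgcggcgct

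The MAP2 window held none of the letters searched, which also included TATAAA and the left part of RE1, TTCAGCACC. In TUBB2B the capitals mark, in order, the CCAAT box, the cAMP response element core and the GC box, all as their reverse complements. In GAP43 they mark the reverse complement of the CCAAT box and then the right part of RE1, and in DPYSL3 the reverse complement of the cAMP response element core. Such short strings are frequent, and of 27305 RefSeq promoters 42.3% held GGGCGG, 33.0% CCAAT, 21.7% TGACG, 11.1% TATAAA, 4.78% GGACAGC and 0.300% TTCAGCACC in the 250 bases. A match is a string of letters and not a measured binding site.

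MAP2, which binds along microtubules and is concentrated in dendrites, lies on the plus strand of chromosome 2 at 209424047 to 209734147 in GRCh38, with 19 transcripts annotated in GENCODE. Its counts were 140 and 113 in NCI-H1581, 427 and 661 in NCI-H1581R, 2435 and 2509 in NCI-H1703, and 7782 and 8469 in NCI-H1703R. On the CPM scale the means were 3.49 ± 0.943, 14.1 ± 3.85, 70.4 ± 6.51 and 215 ± 12.6 (SD, n = 2 each). No 2 variants overlapped, and the order was NCI-H1581, NCI-H1581R, NCI-H1703 and NCI-H1703R from low to high. The fitted change was 4.11-fold in NCI-H1581R (log2 fold change 2.04) and 3.11-fold in NCI-H1703R (log2 fold change 1.64), values that chose the gene. The resistant NCI-H1581R nevertheless stayed below sensitive NCI-H1703, and the 2 sensitive lines differed by 20.4-fold (log2 fold change 4.35 ± 0.19 SE, adjusted p 1.53e-06, edgeR), a contrast the choice had not used.

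**Figure D1:**
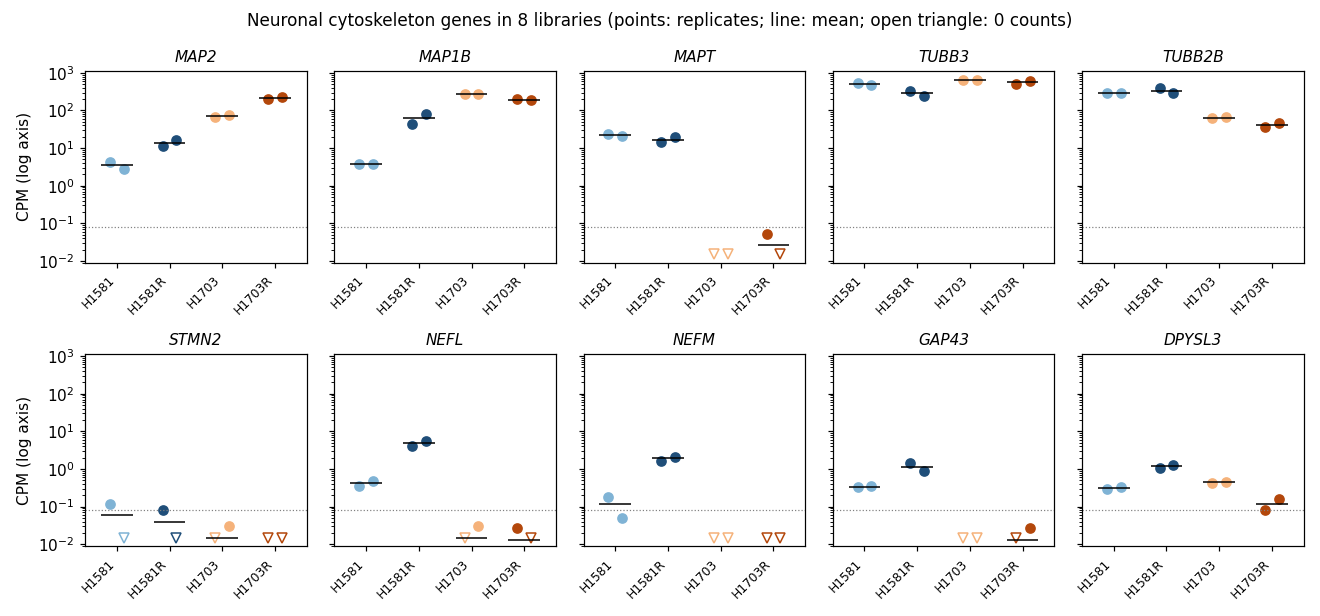
CPM (log axis) of the 10 genes in the 8 libraries, by variant. Filled points are replicates, horizontal lines their means, open triangles libraries with 0 counts, and the dotted line lies near the level of 3 counts. MAP2 climbs over all 4 variants, MAP1B is far higher in NCI-H1581R than in NCI-H1581 and slightly lower in NCI-H1703R than in NCI-H1703, and MAPT, NEFL, NEFM and GAP43 lie at or near 0 in both NCI-H1703 variants.

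The genes other than MAP2 were compared between resistant and sensitive variants of a line by the quasi-likelihood test of edgeR. Calls required an adjusted p, over all 18203 genes tested, below 0.1. STMN2 had too few reads to enter, at 0 to 4 counts per library. In NCI-H1581R 4 of the 8 genes tested were higher (MAP1B, NEFL, NEFM and DPYSL3), TUBB3 was lower, and MAPT, TUBB2B and GAP43 were not called. NEFM entered the test only through its counts in this variant, since a gene needed at least 10 counts over the 8 libraries. Of all genes 15.1% were called in this line, 7.63% higher and 7.44% lower. The median log2 fold change of the 8 genes was 1.84, against 0.04 over all genes. In NCI-H1703R none was higher and 2 of 8 were lower (MAP1B and TUBB2B), against 14.7% of all genes called, 7.06% higher and 7.67% lower, and 4 of the 6 that were not called did not exceed 3 counts in any library of the line. NCI-H1703R and NCI-H1703 therefore give values for MAP2, MAP1B, TUBB3, TUBB2B and DPYSL3 alone.

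**Figure D2:**
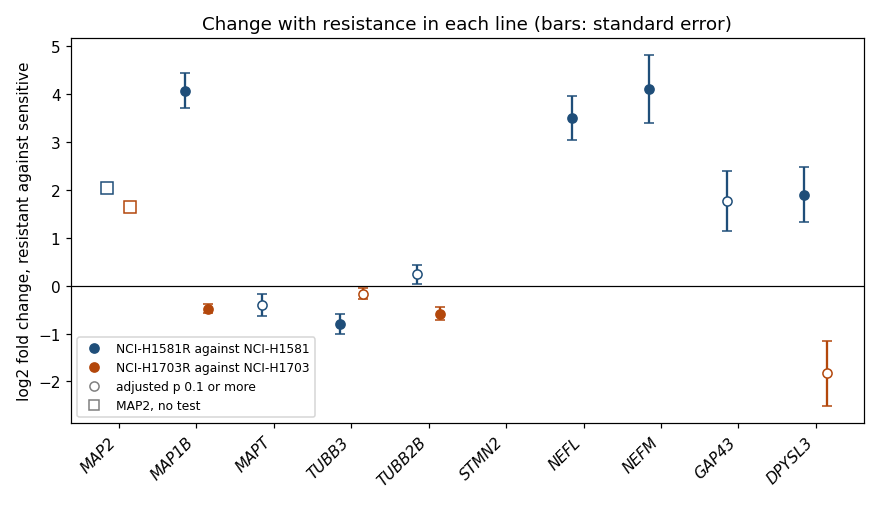
Log2 fold change of each gene in the resistant against the sensitive variant of the same line, with its standard error as a bar. Blue is NCI-H1581R and orange NCI-H1703R, filled circles were called, open circles were not, and the open squares of MAP2 carry no test. MAP1B lies at 4.07 in NCI-H1581R and at -0.48 in NCI-H1703R, and genes that do not exceed 3 counts in a line have no point there.

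MAP1B, a microtubule-associated protein of growing axons on chromosome 5 (72107234 to 72209565, plus strand), had 126 and 156 counts in NCI-H1581 and 1677 and 3273 in NCI-H1581R. The rise was 16.8-fold (log2 fold change 4.07 ± 0.37 SE, adjusted p 0.00104), although the NCI-H1581R replicates differed widely from each other, at 44.6 and 83.1 CPM. In NCI-H1703 it had 10415 and 8910 counts and in NCI-H1703R 7520 and 7013, so that it fell by 0.48 on the log2 scale (SE 0.09, adjusted p 0.0338). That call was lost in a single fit of all 8 libraries (adjusted p 0.305) and when either NCI-H1703 library was left out (0.236 and 0.249). In NCI-H1581R both MAP2 and MAP1B were higher, while in NCI-H1703R MAP2 was higher and MAP1B lower. The change of MAP1B differed between the lines by -4.58 on the log2 scale (SE 0.40, adjusted p 0.000267), in the interaction test, in which 15.4% of all genes were called, 6.93% with a positive and 8.47% with a negative difference.

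MAPT encodes tau, the microtubule-associated protein of axons, and lies on chromosome 17 (45894527 to 46028334, plus strand). It had 798 and 854 counts in NCI-H1581 and 534 and 771 in NCI-H1581R (log2 fold change -0.40 ± 0.22 SE, adjusted p 0.343), so the replicates did not overlap but the difference did not pass the test. In NCI-H1703 both libraries had 0 counts, and in NCI-H1703R they had 2 and 0. Tau RNA was therefore at least 263-fold lower in NCI-H1703 than in NCI-H1581 when 3 counts per library stand for 0. The line with the most MAP2 and MAP1B was the line in which MAPT was not detected above the floor.

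The relative weight of these proteins' RNA was compared per kilobase of 1 reference transcript per gene, over MAP2, MAP1B, MAPT, MAP1A, MAP4, MAP1S and MAP6. MAP2 made up 0.617% ± 0.139 of this sum in NCI-H1581, 2.41% ± 0.0941 in NCI-H1581R, 5.68% ± 0.750 in NCI-H1703 and 19.7% ± 1.63 in NCI-H1703R (SD, n = 2). MAP1B made up 0.556%, 8.80%, 18.0% and 14.4% in the same order. The widely expressed MAP4 and MAP1S took the greater part of the sum in every variant, with MAP1S at 48.0% in NCI-H1581 and MAP4 at 53.3% in NCI-H1703. MAP1A, a further dendritic protein, took 15.2% and 16.3% in the NCI-H1581 variants and 0.425% and 0.561% in the NCI-H1703 variants. A change in which MAP2 transcript is used would move these shares, since the length of a single transcript was taken.

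TUBB3 and TUBB2B are beta-tubulin genes used by neurons. Per kilobase they had the highest levels of the 10 genes in NCI-H1581, NCI-H1581R and NCI-H1703. In NCI-H1703R TUBB3 ranked first, and TUBB2B could not be ordered against MAP2. TUBB3, on chromosome 16 (89921392 to 89938761, plus strand), had 17840 and 18672 counts in NCI-H1581 and 12220 and 9532 in NCI-H1581R, which corresponds to 498 ± 44.7 and 283 ± 58.4 CPM (SD, n = 2). It fell by 0.80 on the log2 scale (SE 0.20, adjusted p 0.0587), against the direction of MAP2 and MAP1B in the same cells, and without either NCI-H1581 library the call was lost (adjusted p 0.316 and 0.401). In NCI-H1703 it had 23850 and 22296 counts and in NCI-H1703R 19711 and 23696, a log2 fold change of -0.16 ± 0.12 (SE, adjusted p 0.472). The change in NCI-H1703R minus that in NCI-H1581R was 0.62 ± 0.24 (SE, adjusted p 0.170), which did not pass the threshold. That difference was called by DESeq2 (adjusted p 0.0524), by edgeR when at least 10 counts were required in every library (0.0931) and by edgeR without NCI-H1581R replicate 1 (0.0238), so the lines were neither shown to differ nor shown to change alike. TUBB3 shares 1584 exon bases with an overlapping readthrough gene on the same strand, which had 209 to 641 counts, and how reads were divided between them affects its level.

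TUBB2B, on the minus strand of chromosome 6 (3223324 to 3231730), had 9761 and 11533 counts in NCI-H1581 and 14673 and 11298 in NCI-H1581R, and on the CPM scale the replicates of the 2 variants overlapped (adjusted p 0.540). In NCI-H1703 it had 2300 and 2188 counts and in NCI-H1703R 1367 and 1795, so that it fell by 0.58 on the log2 scale (SE 0.14, adjusted p 0.0632). That call was lost without the filter on low counts (adjusted p 0.109), in a single fit of all 8 libraries (0.106) and without NCI-H1703 replicate 1 (0.267), NCI-H1703 replicate 2 (0.313) or NCI-H1703R replicate 1 (0.132). The difference between the lines was -0.84 (SE 0.26, adjusted p 0.0781), and it was not called with RLE normalisation (adjusted p 0.107), without either NCI-H1581 library (0.195 for each), without NCI-H1703 replicate 1 (0.191) or replicate 2 (0.261), or without NCI-H1703R replicate 1 (0.252). TUBB2B is nearly identical to TUBB2A, and 174 of its exon bases overlap PSMG4 on the opposite strand (605 to 1758 counts). Its counts are therefore less certain than those of single-copy genes. TUBB2A had a log2 fold change of -0.57 in NCI-H1581R (adjusted p 0.0989) and 0.32 in NCI-H1703R (adjusted p 0.234). In the interaction test TUBB2A differed by 0.88 (adjusted p 0.0496), opposite in sign to TUBB2B. Whether reads were divided differently between these genes was not tested.

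Among 8 beta-tubulin genes, per kilobase, TUBB3 contributed 13.9% ± 0.852 in NCI-H1581, 8.91% ± 0.312 in NCI-H1581R, 16.9% ± 0.595 in NCI-H1703 and 16.3% ± 0.0380 in NCI-H1703R (SD, n = 2). TUBB2B contributed 7.18%, 9.44%, 1.46% and 1.05%. The replicates of NCI-H1581R lay below those of NCI-H1581 for TUBB3 and above them for TUBB2B. TUBB, the beta-tubulin of most cells, made up 53.9%, 56.3%, 48.2% and 48.3%, and TUBB6 took 5.14% and 5.18% in the NCI-H1581 variants and 11.2% in both NCI-H1703 variants.

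**Figure D3:**
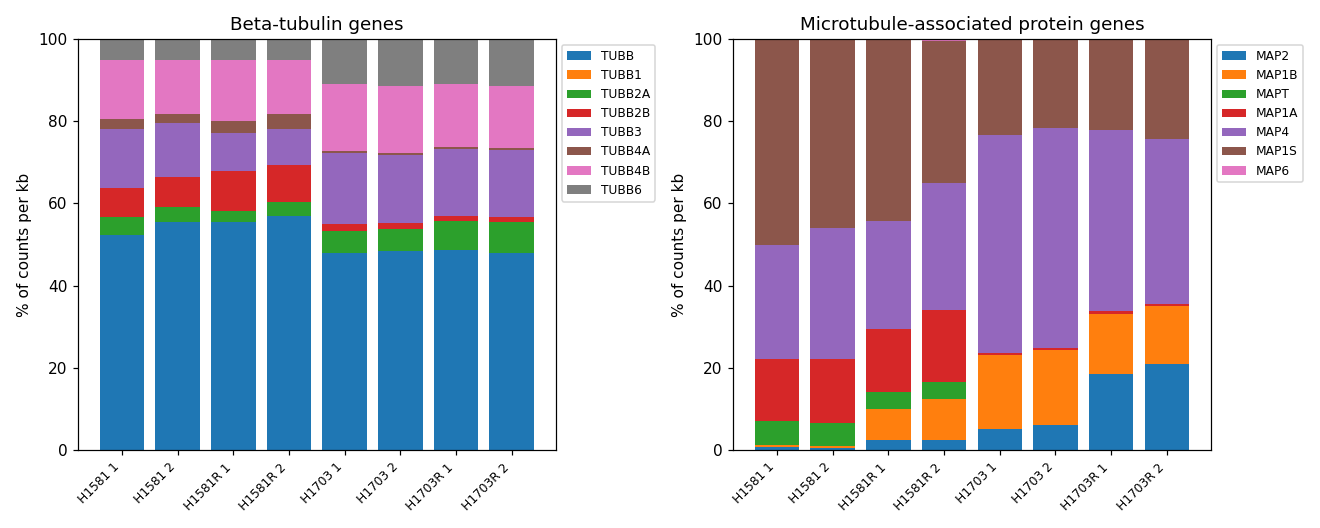
Share of each gene in the summed counts per kilobase of its family, in percent, for every library. The left panel shows 8 beta-tubulin genes and the right panel 7 genes of microtubule-associated proteins. The MAP2 share rises from 0.617% in NCI-H1581 to 19.7% in NCI-H1703R, and TUBB3 has its lowest share in NCI-H1581R at 8.91%.

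NEFL and NEFM encode the light and medium neurofilament subunits and are neighbours on chromosome 8 (24950955 to 24956721, minus strand, and 24913758 to 24919098, plus strand). NEFL had 12 and 19 counts in NCI-H1581 and 156 and 212 in NCI-H1581R, an 11.4-fold rise (log2 fold change 3.51 ± 0.47 SE, adjusted p 0.0054). NEFM had 6 and 2 counts in NCI-H1581 and 63 and 84 in NCI-H1581R (log2 fold change 4.10 ± 0.71 SE, adjusted p 0.0126), a call that was lost without NCI-H1581 replicate 2 (adjusted p 0.1004). NEFM passed the count filter only through NCI-H1581R, where it is high, so its call is not independent of that rise. The 2 subunits rose together, but to no more than 4.77 ± 0.877 and 1.90 ± 0.325 CPM. In both NCI-H1703 variants NEFL had at most 1 count and NEFM had 0, which puts NEFM at least 22.3-fold higher in NCI-H1581R than in NCI-H1703. Antisense genes overlap 781 bases of NEFL and 960 bases of NEFM, and the strandedness of the libraries is not given in the sources used here.

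The heavy subunit, NEFH, behaved otherwise. It had 1661 and 2037 counts in NCI-H1581 and 1422 and 2957 in NCI-H1581R (log2 fold change 0.19 ± 0.32 SE, adjusted p 0.783). In NCI-H1703 its counts were 5646 and 5009 and in NCI-H1703R 101 and 119, so that it fell by 5.67 on the log2 scale (SE 0.12, adjusted p 0.000199). The change with resistance differed between the lines by -5.87 (adjusted p 0.000131). NEFL and NEFM did not exceed the floor in either NCI-H1703 variant. Of the 3 neurofilament subunits, only NEFH could therefore be compared between them.

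GAP43, a membrane protein of growth cones on chromosome 3 (115623510 to 115721490, plus strand), had 11 and 14 counts in NCI-H1581 and 55 and 34 in NCI-H1581R (log2 fold change 1.77 ± 0.62 SE, adjusted p 0.141). It had at most 1 count in any NCI-H1703 or NCI-H1703R library. DPYSL3, a collapsin response mediator on chromosome 5 (147390808 to 147510068, minus strand), had 10 and 13 counts in NCI-H1581, 41 and 49 in NCI-H1581R, 16 and 15 in NCI-H1703 and 3 and 6 in NCI-H1703R. It rose by 1.90 on the log2 scale in NCI-H1581R (SE 0.58, adjusted p 0.0985), a call that DESeq2 did not make (adjusted p 0.164), and its log2 fold change of -1.83 in NCI-H1703R did not pass the test (SE 0.68, adjusted p 0.171). The 2 changes differed by -3.75 (SE 0.84, adjusted p 0.0226, or without NCI-H1703R replicate 1 an adjusted p of 0.113). STMN2, a stathmin of axons on chromosome 8 (79611117 to 79666158, plus strand), had 4 and 0 counts in NCI-H1581, 3 and 0 in NCI-H1581R, 0 and 1 in NCI-H1703 and 0 in both NCI-H1703R libraries, at or near the floor throughout.

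Of the 8 genes in the interaction test, MAP1B, TUBB2B and DPYSL3 were called, beside 15.4% of all genes. All 3 differences were negative, that is, the change in NCI-H1703R was lower than in NCI-H1581R, beside 8.47% of all genes. For 4 others (MAPT, NEFL, NEFM and GAP43) the NCI-H1703 variants were at the floor and no difference could be measured. Among all genes 0.692% were called higher in both resistant variants, 0.95% lower in both, and 0.884% higher in NCI-H1581R and lower in NCI-H1703R, the last being the class of MAP1B.

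The sensitive lines themselves differed in most of these genes, beside 62.9% of all genes called (32.5% higher and 30.4% lower in NCI-H1703). Relative to NCI-H1581, NCI-H1703 had higher MAP2, MAP1B (71.5-fold, log2 fold change 6.16 ± 0.13 SE, adjusted p 7.61e-08) and TUBB3 (log2 fold change 0.40 ± 0.10 SE, adjusted p 0.00983). It had lower MAPT (adjusted p 7.34e-06), TUBB2B (log2 fold change -2.18 ± 0.10 SE, adjusted p 1.72e-06), NEFL (adjusted p 0.0211) and GAP43 (at least 3.96-fold, adjusted p 0.0321). Without NCI-H1703 replicate 1 NEFL was no longer called (adjusted p 0.160), and GAP43 was not called without either NCI-H1703 library (adjusted p 0.107 and 0.131). NEFM and DPYSL3 did not pass the test (adjusted p 0.118 and 0.556). Per kilobase, TUBB3 ranked first of the 10 genes in every variant but NCI-H1581R, where TUBB2B lay at 176 ± 37.9 and TUBB3 at 166 ± 34.2 CPM per kilobase (SD, n = 2) and could not be ordered. In NCI-H1703R MAP2 reached 22.2 ± 1.30 CPM per kilobase, beside 21.7 ± 4.13 for TUBB2B, a difference within the spread, and 16.3 ± 0.822 for MAP1B.

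A wider list of 101 other cytoskeleton genes, of which 98 were tested, gave the surroundings of the 10 genes. In NCI-H1581R 13 were higher and 11 lower (24.5% called), with a median log2 fold change of 0.10, and in NCI-H1703R 6 were higher and 17 lower (23.5% called), with a median of -0.06. MAPRE3, a plus-end binding protein, was higher in both resistant variants (log2 fold change 1.31, adjusted p 0.0167, and 0.72, adjusted p 0.0273).

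**Figure D4:**
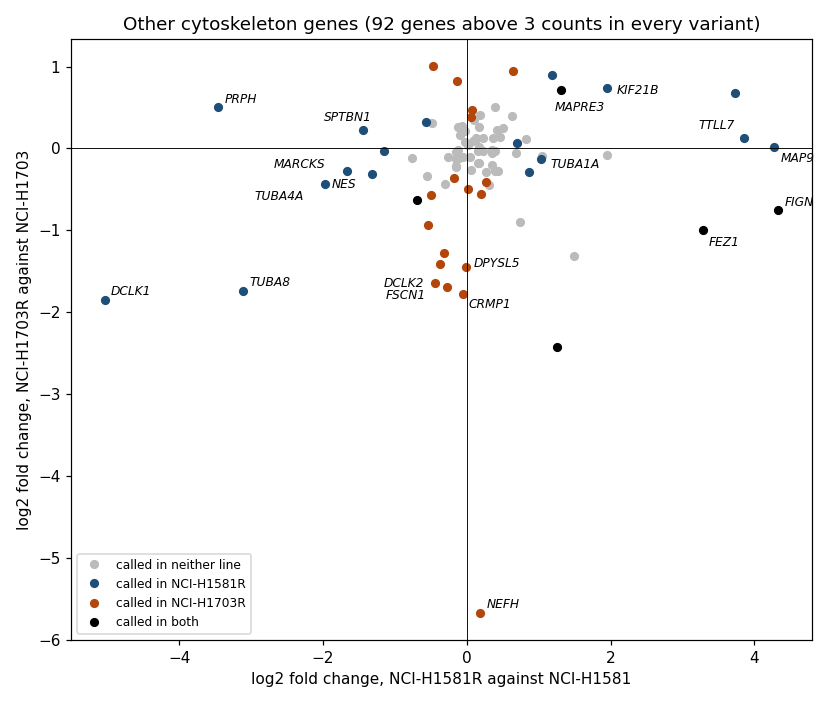
Log2 fold change of other cytoskeleton genes in NCI-H1581R (x axis) and NCI-H1703R (y axis), for the 92 genes with over 3 counts in some library of every variant. Colours show where a gene was called. NEFH lies at -5.67 on the y axis and near 0 on the x axis, FIGN and FEZ1 lie right of 0 and below it, and MAPRE3 lies above 0 on both axes.

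Among 22 other microtubule-associated proteins tested, 4 were higher and 1 lower in NCI-H1581R, and 1 was higher and 4 lower in NCI-H1703R. That is 22.7% called in each, beside 15.1% and 14.7% of all genes. MAP9, a protein of the mitotic spindle, had 22 and 8 counts in NCI-H1581 and 248 and 365 in NCI-H1581R (log2 fold change 4.28 with adjusted p 0.00341), while the doublecortin-like kinase DCLK1 went from 1136 and 1301 to 44 and 33 (-5.03, adjusted p 0.000127). In NCI-H1703R the related DCLK2 fell by 1.64 on the log2 scale (adjusted p 0.00461) and CAMSAP3, a minus-end binding protein, by 0.93 (adjusted p 0.0615). Of 12 other tubulins tested, NCI-H1581R had 1 higher and 3 lower, with TUBA1A, a neuronal alpha-tubulin, at a log2 fold change of 1.04 (adjusted p 0.0802), TUBA4A at -1.97 (adjusted p 0.0209) and TUBA8 at -3.11 (adjusted p 0.00446). The called tubulins were 33.3% in NCI-H1581R, beside 15.1% of all genes. None of these tubulins was called in NCI-H1703R, beside 14.7% of all genes.

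Of 6 other stathmins and collapsin response mediators tested, none was called in NCI-H1581R, beside 15.1% of all genes, and 6 were called in NCI-H1703R, 5 lower and 1 higher, beside 14.7% of all genes. CRMP1 had 412 and 372 counts in NCI-H1703 and 95 and 145 in NCI-H1703R (log2 fold change -1.78, adjusted p 0.00995) and DPYSL5 from 1398 and 1363 to 541 and 524 (-1.45, adjusted p 0.00225), and DPYSL2 rose from 1939 and 2177 to 4008 and 4375 (0.94, adjusted p 0.0142). The interaction test called CRMP1 (-1.75, adjusted p 0.00647) and DPYSL5 (-1.45, adjusted p 0.00118) and did not call DPYSL2 (adjusted p 0.668).

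Of 8 other intermediate filament genes, NCI-H1581R had 2 lower, PRPH (peripherin, log2 fold change -3.46, adjusted p 0.00108) and NES (nestin, -1.32, adjusted p 0.00491), beside the rises of NEFL and NEFM. In NCI-H1703R NEFH alone was called. The calls in this list were 25.0% and 12.5%, beside 15.1% and 14.7% of all genes. Of 14 growth cone and membrane skeleton genes, NCI-H1581R had 1 higher and 4 lower, among the latter MARCKS (-1.67, adjusted p 0.00327) and SPTBN1 (-1.44, adjusted p 0.0641). NCI-H1703R had 1 higher and 3 lower. Called genes were 35.7% and 28.6% of this list, beside 15.1% and 14.7% of all genes. FEZ1, a kinesin adaptor in axon growth, was higher in NCI-H1581R (3.28, adjusted p 0.00257) and lower in NCI-H1703R (-0.9996, adjusted p 0.0983), with an interaction of -4.30 (adjusted p 0.000938). In NCI-H1703R ANK2, an ankyrin of axons, was higher (1.005, adjusted p 0.00995) and FSCN1, an actin-bundling protein, lower (-1.69, adjusted p 0.00137).

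Of 19 genes that modify or sever tubulin, 5 were higher and 1 lower in NCI-H1581R and 2 higher and 4 lower in NCI-H1703R. That is 31.6% called in each, beside 15.1% and 14.7% of all genes. The polyglutamylase TTLL7 had 13 and 22 counts in NCI-H1581 and 216 and 314 in its resistant variant, 3.86 on the log2 scale (adjusted p 0.00312). FIGN, the severing protein fidgetin, rose there from 223 and 191 to 4004 and 4720 counts (4.33, adjusted p 0.000124) and fell in NCI-H1703R (-0.76, adjusted p 0.0377), with an interaction of -5.11 (adjusted p 2.22e-05). Of 17 axonal kinesins and tau kinases, 2 were higher in NCI-H1581R, among them KIF21B (1.96, adjusted p 0.00711). CDK5 alone was called in NCI-H1703R, where it was higher (0.38, adjusted p 0.0798). These calls were 11.8% and 5.88% of the list, beside 15.1% and 14.7% of all genes.

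REST had 641 and 1109 counts in NCI-H1581, 577 and 980 in NCI-H1581R, 1431 and 1321 in NCI-H1703 and 1517 and 1605 in NCI-H1703R. Its log2 fold changes of -0.21 ± 0.31 (SE, adjusted p 0.742) and 0.11 ± 0.09 (SE, adjusted p 0.560) did not pass the test in either line. Of REST and 8 of its partners, the corepressor RCOR2 alone was called, in NCI-H1581R (0.59, adjusted p 0.0758). This was 11.1% of the list in NCI-H1581R and 0% in NCI-H1703R, beside 15.1% and 14.7% of all genes. Of the 12 neuronal and neuroendocrine markers tested, 2 were higher (CHGA and ENO2) and 2 lower (SNAP25 and CHGB) in NCI-H1581R, and 1 was higher (SYP) and 3 lower (CHGA, ENO2 and SYT1) in NCI-H1703R. That is 33.3% called in each, beside 15.1% and 14.7% of all genes. CHGA, a granule protein, had 7 and 5 counts in NCI-H1581, 74 and 182 in NCI-H1581R (4.33, adjusted p 0.0187), 13 and 18 in NCI-H1703 and 0 in both NCI-H1703R libraries (adjusted p 0.0764). SNAP25, a synaptic vesicle fusion protein, went from 602 and 601 to 17 and 17 counts in NCI-H1581R (-5.19, adjusted p 0.000313) and CHGB, a further granule protein, fell by 2.13 on the log2 scale (adjusted p 0.00312). ENO2, neuronal enolase, was higher in NCI-H1581R (0.67, adjusted p 0.0517) and lower in NCI-H1703R (-3.03, adjusted p 0.0152), where SYP, a vesicle protein, was higher (0.88, adjusted p 0.0415), SYT1, a calcium sensor of vesicle release, was lower (-1.21, adjusted p 0.00482) and the epithelial keratin KRT18 fell by 4.56 (adjusted p 0.000199). Of 5 fibroblast genes, 4 were lower in NCI-H1581R, among them DCN, with 1647 and 1737 counts in NCI-H1581 and 9 and 3 in NCI-H1581R, and COL1A1 (-1.09, adjusted p 0.0310). In NCI-H1703R COL1A1 was higher, with 39 and 30 counts in NCI-H1703 and 999 and 827 in NCI-H1703R (4.65, adjusted p 0.000743), and the other 4 were not called.

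The pattern nearest to that of MAP2 over the 8 libraries, among 13376 genes with a mean of at least 1 CPM, was that of CSF1, a macrophage growth factor, by Euclidean distance of centred log2 CPM (1.003), followed by KLHL29 (1.06), CRACD (1.07), LYN (1.31) and CACNB4 (1.34). Pearson's r over the 8 libraries lay between 0.978 and 0.990, values that are set largely by the difference between the 2 lines and that describe likeness only. CSF1 had 58 and 43 counts in NCI-H1581, 108 and 123 in NCI-H1581R, 886 and 875 in NCI-H1703, and 2363 and 2982 in NCI-H1703R. Of the other 9 cytoskeleton genes, STMN2, NEFM, GAP43 and DPYSL3 lay under the cut of 1 CPM and could not be ranked. None of the rest was among these 5, which with so few places says little on their likeness to MAP2.

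Of the 6 tested protein-coding genes nearest to MAP2, KANSL1L was called in NCI-H1581R and IDH1 and PIKFYVE were called in NCI-H1703R, all higher. Over all genes 15.1% and 14.7% were called in these variants. On the side before it, IDH1 had a log2 fold change of 0.41 in NCI-H1581R (adjusted p 0.190) and 1.01 in NCI-H1703R (adjusted p 0.00447), PIKFYVE 0.29 (adjusted p 0.487) and 0.38 (adjusted p 0.0782), and PTH2R had at most 10 counts. On the other side, UNC80, 0.0377 Mb away, had 0.58 (adjusted p 0.468) and -0.12 (adjusted p 0.950), RPE was not called in either line, and KANSL1L was called in NCI-H1581R (1.58, adjusted p 0.0441) but not in NCI-H1703R (0.70, adjusted p 0.235). The genes around NEFM and NEFL were not called in NCI-H1581R, where both neurofilament genes rose, and of these 6 neighbours DOCK5 was the nearest on one side at 0.228 Mb (0.67, adjusted p 0.401).

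**Figure D5:**
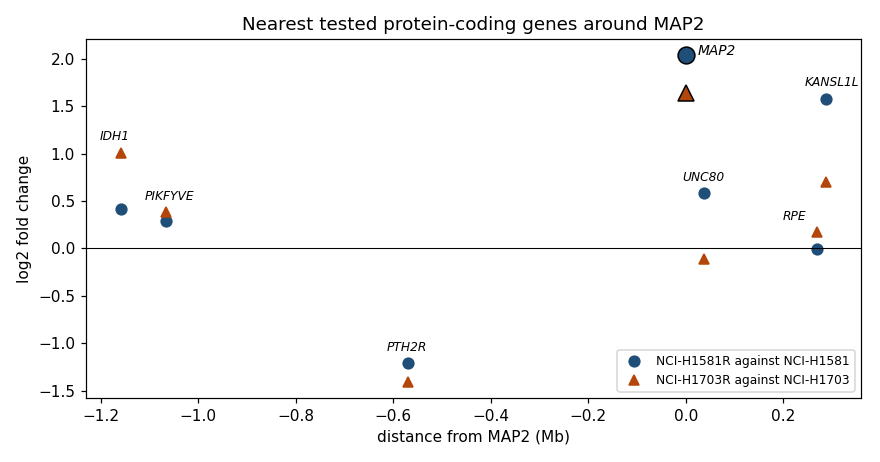
Log2 fold change against distance from MAP2 (Mb) for the 3 nearest tested protein-coding genes on either side, in NCI-H1581R (circles) and NCI-H1703R (triangles), with MAP2 at 0 outlined. MAP2 lies at 2.04 and 1.64, and its neighbours are lower in both lines, with KANSL1L nearest to it in NCI-H1581R at 1.58.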

How the data were processed

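RNA from 8 libraries (4 variants, 2 replicates each, grouped by cell line and variant from the labels) was sequenced. The authors trimmed paired reads with cutadapt, mapped them to GRCh38 transcripts with Salmon and obtained gene values through tximport. Versions, transcript annotation, tximport options and strandedness are not given in the sources used here. The deposited table holds estimated counts, in whole numbers and not normalised. Symbols and coordinates came from GENCODE v44, which matched 34495 of 37441 genes, and promoters from RefSeq.

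Genes with at least 10 counts over the 8 libraries (18203) were tested with edgeR 4.0.16 in R 4.3.3 (TMM normalisation, quasi-likelihood test, two-sided, Benjamini-Hochberg threshold 0.1), each contrast on its own 4 libraries and the interaction on all 8. CPM used TMM factors of all 8 libraries. Standard errors were derived as log2 fold change over the root of edgeR's F statistic. Members and gene lists were chosen with earlier results of these data known. Besides the members, the genes named were, of each list, those called in both lines in the same direction and the 2 largest rises and falls per line above 5 CPM, shown as examples, and the genes nearest to MAP2 in pattern or in position. Some genes selected this way are not reported here. Values of STMN2 and of genes at 3 counts or fewer received no fold change. The scripts were tested on simulated data. Alternatives were DESeq2 1.42.0, RLE normalisation, other filters, a replicate block, a single fit of all 8 libraries, a threshold of 0.05, leaving out each replicate and, for the shares, other gene lengths. Legacy quasi-dispersions were added after seeing the data.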

Additional observations from a re-analysis of the deposited data

Results flagged for a closer look

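The change with resistance differed between the lines for 3 of the members by the interaction test, which called 15.4% of all genes. For MAP1B the change in NCI-H1703R minus that in NCI-H1581R was -4.58 on the log2 scale (adjusted p 0.000267), a rise in one line and a fall in the other. For DPYSL3 the difference was -3.75 (adjusted p 0.0226), on at most 49 counts per library, and it was not called without NCI-H1703R replicate 1 (adjusted p 0.113). For TUBB2B it was -0.84 (adjusted p 0.0781), a call lost with RLE normalisation (adjusted p 0.107) and when any of 5 single libraries was left out, namely both of NCI-H1581, both of NCI-H1703 and NCI-H1703R replicate 1 (0.191 to 0.261). The nearly identical TUBB2A differed by 0.88 in the same test (adjusted p 0.0496), opposite in sign to TUBB2B. How reads were divided between these genes was not tested. No group had enough samples for a search for outlying libraries.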

How the results depend on the processing

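The direction of each member's change given above was kept under all alternatives run. The number of members called, other than MAP2, was 5 in NCI-H1581R and became 3 at a threshold of 0.05 and 2 to 6 with a replicate left out. In NCI-H1703R it was 2 and became 1 without the count filter, 0 in a single fit of all 8 libraries, 1 at a threshold of 0.05 and 0 to 2 with a replicate left out. The interaction calls were 3 and ranged from 1 to 4 with a replicate left out, and the 7 members called between the sensitive lines became 4 when at least 10 counts were required in every library. Other cytoskeleton genes called in NCI-H1581R were 24, or 37 in the single fit and 11 to 54 with a replicate left out, and in NCI-H1703R 23, or 5 to 16 with a replicate left out. A lone library is assumed there to vary like the other groups. Between the sensitive lines, requiring at least 10 counts in every library removed MAPT, NEFL and GAP43 from the test. Their calls were thus not tested under that filter. Without either sensitive library the calls of TUBB3 in NCI-H1581R (adjusted p 0.316 to 0.401), MAP1B in NCI-H1703R (0.236 to 0.249) and TUBB2B in NCI-H1703R (0.267 to 0.313) were lost, and NEFM in NCI-H1581R was lost without NCI-H1581 replicate 2 (0.1004). DPYSL3 in NCI-H1581R was not called by DESeq2 (adjusted p 0.164), with RLE normalisation (0.101), without the filter (0.110), with legacy quasi-dispersions (0.124), with the replicate block (0.108) or with any replicate left out (0.121 to 0.288). GAP43 in NCI-H1581R was called in the single fit (0.0677) and when at least 10 counts were required in every library (0.0724). Over all genes, the calls in NCI-H1581R were 2743, or 4539 in the single fit, and in NCI-H1703R 2683, or 1730 in it. The cause of these shifts was not tested.

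The replicate number was used as a block in a further fit. Same-numbered libraries deviated together weakly, with r of 0.0484 between the NCI-H1581 variants and 0.167 between the NCI-H1703 variants over 12102 genes, so they are treated as sharing a number only. With the block, 4 members (TUBB3, adjusted p 0.0798, and DPYSL3, 0.0974, beside MAP1B and TUBB2B) and 43 other cytoskeleton genes were called in NCI-H1703R, where the calls over all genes went from 2683 to 6356. The block also called the TUBB3 difference between the lines (0.0696), lost DPYSL3 in NCI-H1581R and changed no other member's call. The share of TUBB3 among beta-tubulins, computed with the union of exons as length, was 5.66% in NCI-H1581, 3.51% in NCI-H1581R, 6.99% in NCI-H1703 and 6.76% in NCI-H1703R, and with plain counts 11.02%, 6.95%, 13.8% and 13.3%, with the same order of variants. Depth limits NEFM, GAP43, DPYSL3 and STMN2, which had under 100 counts in every library.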
